A study of Mus musculus with 6 samples.

Results

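The genes described here are the secreted Wnt proteins, their Frizzled receptors and the secreted Wnt inhibitors of the secreted frizzled-related (sFRP) and Dickkopf families. They were taken as all protein-coding genes whose mouse symbol is Wnt, Fzd, Sfrp or Dkk followed by a number and an optional letter, which gave 37 of the 41388 genes in the count data. Of these, 19 were Wnt genes, 10 were Fzd genes, 4 were Sfrp genes and 4 were Dkk genes. The rule itself uses symbols only.

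Expression had been measured by RNA-seq in 6 samples of sorted cells from mammary tumors of female MMTV-PyMT mice (strain FVB/N-TgN(MMTVPyVT)634Mul/J) aged 12 weeks, the age the study's text gives for its experiments on sorted cells. These mice express the polyoma middle T antigen from the viral MMTV promoter, which is active mainly in mammary epithelium, and all 6 samples carry the transgene. In 3 samples the cells were tumor-initiating cells (TICs), gated as CD24+CD90+CD45-, and in 3 samples they were non-CD24+CD90+ tumor cells, gated as CD45- cells negative for either or both markers in the study's methods and named as negative for both in the series description. Cells of 4 sorts had been pooled per sample, each library was made from 120 ng of RNA, and no normal mammary cells were sequenced. The comparison asks which genes differ between TICs and the remaining tumor cells. Beside scatter profiles and the removal of DAPI-positive and CD45+ cells, the gates select on CD24 and CD90 only. A non-epithelial cell that remains enters the TIC gate if it carries both CD24 and CD90, and the comparison gate if it lacks either. Whether the TIC and non-CD24+CD90+ pools were sorted from the same mice is not given in the labels, and the number of mice the study states leaves it possible, so the tests, which are unpaired, may leave a shared origin out.

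Wnt proteins are lipid-modified ligands that bind Frizzled receptors and the coreceptors Lrp5 and Lrp6, upon which beta-catenin escapes degradation and activates transcription with TCF and LEF factors. Some ligands, Wnt5a and Wnt11 among them, act largely through Frizzleds without beta-catenin, for example in planar cell polarity. sFRPs carry a Frizzled-like domain that can bind Wnts outside the cell, while Dkk1, Dkk2 and Dkk4 bind Lrp5 and Lrp6. In the mammary gland the pathway is known for its part in branching and in basal stem cells, and Wnt1 is an oncogene first found through insertions of the mouse mammary tumor virus.

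Total counts were between 6781239 and 8450038 in the non-CD24+CD90+ samples and between 8114933 and 9100552 in the TIC samples, so that 3 counts, used here as the floor of detection, corresponded to 0.33 to 0.442 CPM, the count scaled to the depth of the sample. These floors cover counting error only, since the reads carry no molecular identifiers. Where the remaining samples of a group predicted 20 to 60 reads in a sample, 19.1% (non-CD24+CD90+ replicate 2) to 39.7% (TIC replicate 3) of genes were missing from that sample, so a single missing count is weak evidence of absence. TIC replicates 2 and 3 stood apart from the other samples and from each other, with replicate 3 at the lowest correlations with the rest (0.75 to 0.775 on the log scale). Results are therefore also given without these samples where a call changed.

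Of the 37 genes, 20 had more than 1 CPM in at least 3 samples and were tested, 6 had counts below this limit, and 11 had no count in any of the 6 samples. The genes without a count were 8 ligands (Wnt1, Wnt3, Wnt3a, Wnt7a, Wnt8a, Wnt8b, Wnt9b and Wnt10b), 1 receptor (Fzd10) and 2 inhibitors (Sfrp5 and Dkk4). Several ligands best known as activators of beta-catenin, such as Wnt1, Wnt3a and Wnt10b, were thus below detection at this depth. In the plot of raw counts these genes appear as grey rows.

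**Figure D1:**
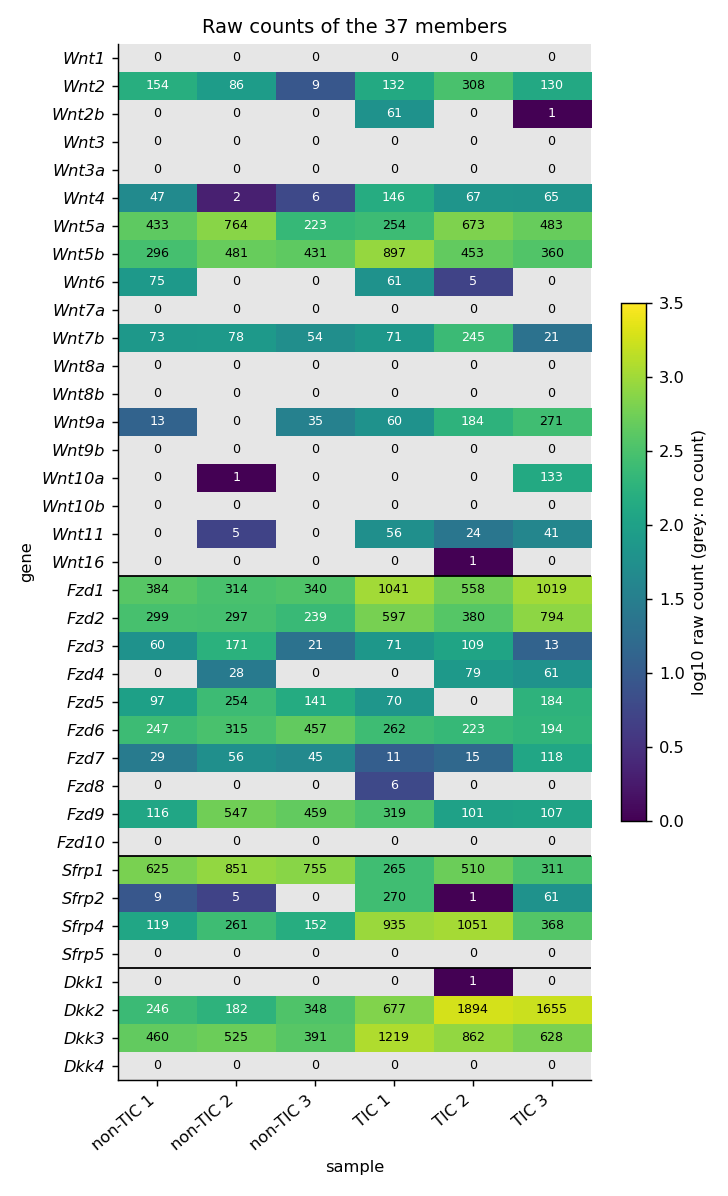
Raw read counts of the 37 genes (rows, grouped by family) in the 6 samples (columns), with the count written in each cell and its log10 as colour; grey cells hold no count. The 11 genes without a count are grey throughout, and the highest count belongs to Dkk2 in TIC replicate 2, with 1894 reads.

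The secreted inhibitors Dkk2 and Sfrp4 were higher in TICs, and no ligand and no receptor passed the test in either direction. Dkk2 rose 4.83-fold in mean level and Sfrp4 rose 3.98-fold. Of the 20 tested genes, 2 were therefore called higher and 0 lower by edgeR's exactTest at a Benjamini-Hochberg adjusted p below 0.1, where 1.36% of all 12192 tested genes were called higher and 0.189% lower. At an unadjusted p below 0.05 there were 8 of the 20, beside 7.85% of all tested genes. edgeR's quasi-likelihood test called 1 of the 20 (Dkk2, with 7 at an unadjusted p below 0.05, a level that 7.92% of all genes reached) beside 0.410% of all genes in either direction, and DESeq2 called 2 (Dkk2 and Sfrp4) beside 2.58%. The median log2 fold change of the 20 genes, TIC against non-CD24+CD90+, was 0.87, with 14 of 20 above 0, and the median over all tested genes was -0.01, with 49.7% above 0. By family the median was 1.01 for 7 Wnt genes, -0.18 for 8 Fzd genes, 1.99 for 3 Sfrp genes and 1.53 for 2 Dkk genes. Wnt11 entered the test through its TIC samples alone, so that it had to differ. Wnt4 exceeded 1 CPM in 3 TIC samples and 1 of the others, Wnt9a in 3 and 2, and Sfrp2 and Fzd4 in 2 and 1. Fzd5 went the other way, with 2 TIC samples and 3 of the others. The entry of these genes thus leaned on the group where they were higher. The medians and counts over the 20 tested genes and by family include them and Wnt11.

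**Figure D2:**
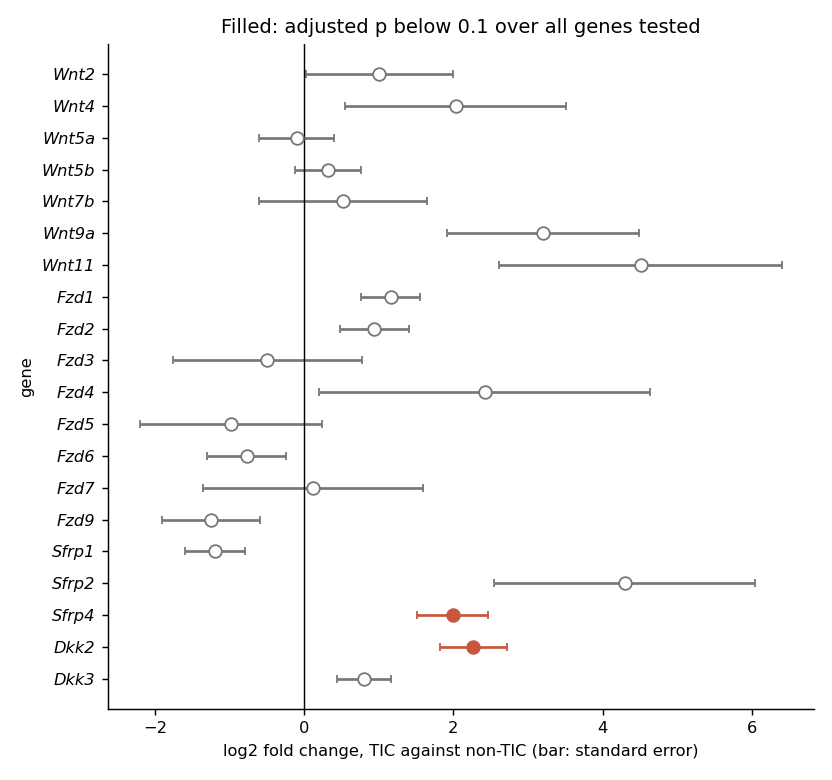
Log2 fold change (TIC against non-CD24+CD90+ tumor cells, x axis) with its standard error for the 20 tested genes (y axis); filled symbols mark an adjusted p below 0.1 over all 12192 genes tested. Only Dkk2 at 2.27 and Sfrp4 at 1.99 are filled, and the widest bars belong to genes with few counts such as Fzd4 and Wnt11.

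Dkk2 encodes a secreted protein that binds Lrp5 and Lrp6 and, depending on the presence of Kremen proteins, blocks or weakly activates the pathway. Its gene lies on mouse chromosome 3, GRCm38 positions 132085292 to 132180304, plus strand. The counts of Dkk2 were 246, 182 and 348 in non-CD24+CD90+ replicates 1 to 3 and 677, 1894 and 1655 in TIC replicates 1 to 3. Normalised for depth, with edgeR's trimmed mean of M-values (TMM) applied to CPM, these were 35.9, 20.7 and 49.8 CPM against 74.4, 221 and 218 CPM. All TIC samples lay above all others, with TIC replicate 1 closest to them. The means were 35.4 ± 14.6 and 171 ± 83.8 CPM (SD, n = 3 each), and the log2 fold change was 2.27 with a standard error (SE) of 0.45 (adjusted p = 0.00078 by edgeR's exactTest). Dkk2 was called under each of the 13 alternative settings tried, the fits without TIC replicate 2 or 3 included. Its log2 fold changes ran from 2 (without non-CD24+CD90+ replicate 2) to 2.65 (without TIC replicate 1). The adjusted p ran from 1.7e-07 (exactTest without TIC replicate 1) to 0.0776 (edgeR's quasi-likelihood test).

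The sequence around the annotated start of Dkk2 is shown because Dkk2 was the tested gene called under each alternative, and that of Wnt11 because its counts lay almost entirely in the TIC samples. Both windows run from 250 bases before the RefSeq transcription start to 50 bases from it (RefSeq, GRCm38.p6), plus strand, 5′ to 3′. The Dkk2 window is chr3:132085042-132085341 and the Wnt11 window, the first of 2 that RefSeq gives, is chr7:98834862-98835161. Capitals mark matches to a TATA box (TATAAA) and to the core recognised by TCF and LEF factors (CTTTGA, or TCAAAG on the other strand), searched on both strands.
Dkk2: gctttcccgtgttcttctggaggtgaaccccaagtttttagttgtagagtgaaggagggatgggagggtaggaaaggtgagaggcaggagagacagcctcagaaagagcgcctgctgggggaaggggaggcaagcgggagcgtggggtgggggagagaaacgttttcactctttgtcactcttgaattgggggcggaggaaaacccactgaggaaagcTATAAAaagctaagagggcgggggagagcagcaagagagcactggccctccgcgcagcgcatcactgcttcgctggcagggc
Wnt11: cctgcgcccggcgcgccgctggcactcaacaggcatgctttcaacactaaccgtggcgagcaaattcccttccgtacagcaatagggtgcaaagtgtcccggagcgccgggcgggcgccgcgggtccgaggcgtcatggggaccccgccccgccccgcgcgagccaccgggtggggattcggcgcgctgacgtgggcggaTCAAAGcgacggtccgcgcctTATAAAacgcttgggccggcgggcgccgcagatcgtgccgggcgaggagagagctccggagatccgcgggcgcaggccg
Dkk2 had 1 TATA match, at -32 to -27 from the start, and no TCF and LEF core. Wnt11 had 1 TATA match at -29 to -24 and 1 TCF and LEF core at -50 to -45. The matches did not overlap each other. Of 32851 mouse promoter windows of the same length, 13.6% held the TATA letters, 16.0% the TCF and LEF core and 20.2% an E-box of the type bound by ZEB and SNAI factors (CACCTG), which neither window held. Entries existed for 25 of the 37 genes, with 28 windows, of which 4 held the TATA letters, 4 the TCF and LEF core and 9 the E-box. Sfrp4, the other called gene, had no entry, and neither had Sfrp1, Dkk3, Fzd2, Fzd6 and Wnt5a. Several of the windows belong to genes without a count. A match describes letters only and was not tested for binding.

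Sfrp4, a secreted frizzled-related protein found in stroma and often described as a Wnt antagonist, lies on chromosome 13, positions 19623104 to 19632994, plus strand. Its counts were 119, 261 and 152 in the non-CD24+CD90+ samples and 935, 1051 and 368 in the TIC samples. In CPM these were 17.4, 29.6 and 21.7 against 103, 123 and 48.6. The groups did not overlap, and TIC replicate 3 was the lowest of the TIC samples. The means were 22.9 ± 6.21 and 91.3 ± 38.3 CPM (SD, n = 3 each), with a log2 fold change of 1.99 (SE 0.47, adjusted p = 0.01 by edgeR's exactTest). The call was lost in edgeR's quasi-likelihood test (adjusted p = 0.125). It was also lost in exactTest without non-CD24+CD90+ replicate 1 (1.84, adjusted p = 0.131), without non-CD24+CD90+ replicate 3 (1.96, adjusted p = 0.104) and without TIC replicate 2 (1.72, adjusted p = 0.182), the highest of a range that began at 2.0e-04 without TIC replicate 3.

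The other sFRPs were not called. Sfrp1, an sFRP expressed in mammary epithelium and often silenced in breast cancer, had 625, 851 and 755 counts in the non-CD24+CD90+ samples and 265, 510 and 311 in the TIC samples. All TIC samples were below all others, at 43.2 ± 15.3 CPM against 98.6 ± 8.57 CPM (SD, n = 3 each), yet Sfrp1 did not pass the test (log2 fold change -1.19, SE 0.40, adjusted p = 0.162 by edgeR's exactTest). Sfrp2, known from fibroblasts, had 9, 5 and 0 counts against 270, 1 and 61. Its groups overlapped because TIC replicate 2 held 1 count, and the log2 fold change of 4.30 had an SE of 1.75 (adjusted p = 0.606 by edgeR's exactTest). Summed over the 4 Sfrp genes, the level was 109.9 to 129.7 CPM in the non-CD24+CD90+ samples and 97.7 to 182.6 CPM in the TIC samples, so that the family sum overlapped between groups.

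Among the Dickkopf genes, Dkk3, a divergent member that does not act on Lrp5 and Lrp6 as the others do, had 460, 525 and 391 counts in the non-CD24+CD90+ samples and 1219, 862 and 628 in the TIC samples. The groups did not overlap, with means of 60.9 ± 5.71 and 106 ± 26.0 CPM (SD, n = 3 each), but Dkk3 was not called (log2 fold change 0.80, SE 0.36, adjusted p = 0.499 by edgeR's exactTest). Dkk1 had 1 count, in TIC replicate 2, and Dkk4 had none. The summed level of the Dkk genes, which is nearly all Dkk2 and Dkk3, was 80.3 to 105.7 CPM in the non-CD24+CD90+ samples and 208.4 to 321.1 CPM in the TIC samples.

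**Figure D3:**
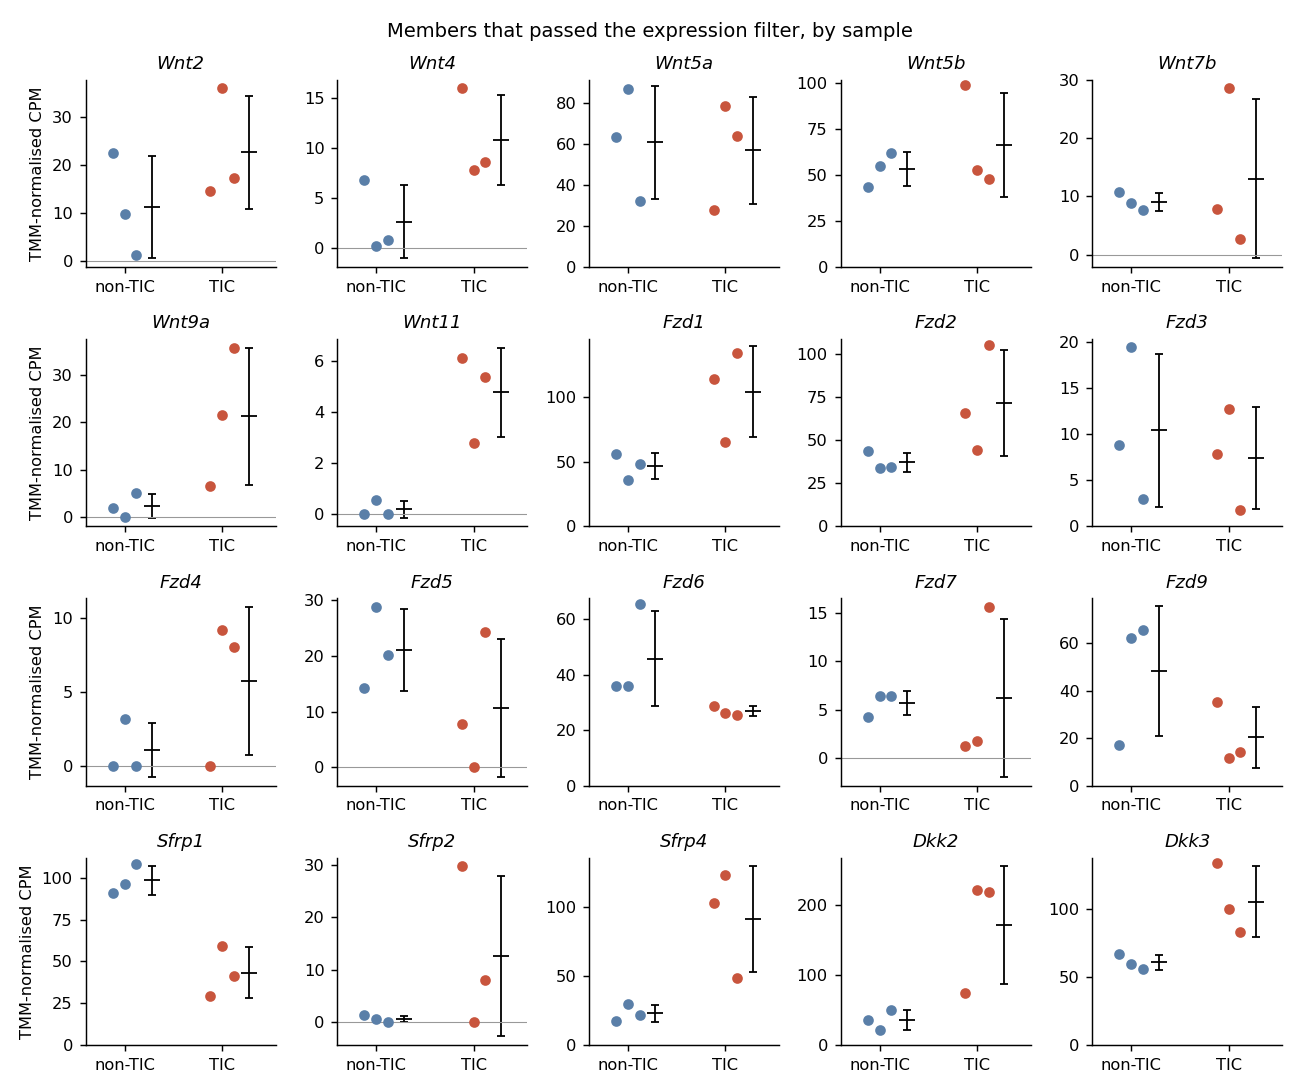
TMM-normalised CPM of the 20 tested genes in each sample (points; blue, non-CD24+CD90+ tumor cells, labelled non-TIC; red, TICs), with mean and SD of 3 samples beside them; each panel has its own linear axis. Dkk2, Sfrp4, Dkk3, Fzd1, Fzd2, Wnt4, Wnt9a and Wnt11 have all TIC points above the others, and Sfrp1 and Fzd6 have all below.

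In 8 of the 20 tested genes every TIC sample lay above every non-CD24+CD90+ sample, and in 2 every TIC sample lay below, where 7.69% and 7.55% of all tested genes did so. The 8 were the inhibitors Dkk2, Dkk3 and Sfrp4, the receptors Fzd1 and Fzd2, and the ligands Wnt4, Wnt9a and Wnt11. The 2 were Sfrp1 and Fzd6. Of the 8, Wnt11 entered the test through its TIC samples alone, and the entry of Wnt4 and Wnt9a leaned on theirs.

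Of the ligands, 7 passed the filter on low counts, and 0 were called by edgeR's exactTest, its quasi-likelihood test or DESeq2. Of all tested genes, exactTest called 1.36% higher and 0.189% lower. In exactTest 1 ligand (Wnt9a) had an unadjusted p below 0.05, beside 7.85% of all tested genes. Wnt9a, a ligand known from joint and skeletal development, had 13, 0 and 35 counts in the non-CD24+CD90+ samples and 60, 184 and 271 in the TIC samples, without overlap. Its mean was 2.30 ± 2.53 against 21.3 ± 14.6 CPM (SD, n = 3 each), a log2 fold change of 3.20 with an SE of 1.29, which did not pass the test (adjusted p = 0.494 by edgeR's exactTest). Wnt11, a ligand of planar polarity and cell movement, had 0, 5 and 0 counts against 56, 24 and 41. That contrast, 0.189 ± 0.328 against 4.79 ± 1.76 CPM, gave the highest log2 fold change of the 20 tested genes, 4.51, but also an SE of 1.90 (adjusted p = 0.652 by edgeR's exactTest). Without non-CD24+CD90+ replicate 2, which held the 5 counts of its group, the fitted value was 8.23 against samples at 0 and is no estimate of size.

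Wnt4, which acts downstream of progesterone in mammary side branching, had 47, 2 and 6 counts in the non-CD24+CD90+ samples and 146, 67 and 65 in the TIC samples. The lowest TIC sample was just above the highest of the others, at 7.81 against 6.86 CPM, and the log2 fold change was 2.03 (SE 1.48, adjusted p = 0.974 by edgeR's exactTest). It was 4.3 without non-CD24+CD90+ replicate 1, which held most of the counts of its group. Wnt2, a ligand found in mammary stroma and early epithelium, had 154, 86 and 9 counts against 132, 308 and 130. Its groups overlapped, with a log2 fold change of 1.01 (SE 0.98, adjusted p = 1 by edgeR's exactTest).

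Wnt5a and Wnt5b, close relatives that signal largely without beta-catenin, were the ligands with the most reads. Wnt5a had 433, 764 and 223 counts in the non-CD24+CD90+ samples and 254, 673 and 483 in the TIC samples, and Wnt5b had 296, 481 and 431 against 897, 453 and 360. Both overlapped between groups, with log2 fold changes of -0.10 (SE 0.50) and 0.32 (SE 0.44), each at an adjusted p of 1 by edgeR's exactTest. Wnt7b, a ligand of mammary epithelium and of tumor macrophages, had 73, 78 and 54 counts against 71, 245 and 21, with TIC replicate 2 far above the rest and a log2 fold change of 0.52 (SE 1.13, adjusted p = 1 by edgeR's exactTest). Summed over all Wnt genes, the level was 108.4 to 160.8 CPM in the non-CD24+CD90+ samples and 190.9 to 228.6 CPM in the TIC samples. No single ligand was called, and the sum includes Wnt11 and untested ligands such as Wnt10a (17.5 CPM in TIC replicate 3). Its largest part was Wnt5b in TIC replicate 1 (98.6 CPM) and Wnt5a in TIC replicates 2 and 3 (78.5 and 63.7 CPM).

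Below the filter, 4 ligands had some counts. Wnt2b had 0, 0 and 0 counts in the non-CD24+CD90+ samples and 61, 0 and 1 in the TIC samples. Wnt6 had 75, 0 and 0 against 61, 5 and 0, and Wnt10a had 0, 1 and 0 against 0, 0 and 133. Wnt16 had 1 count, in TIC replicate 2. Each of Wnt2b, Wnt6 and Wnt10a thus rested on 1 well-covered sample per group at most, and with Fzd4 and Fzd5 they made 5 genes in which a sample without a count stood beside 1 of the same group with at least 50.

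Several Wnt genes lie next to each other in the genome. Among these pairs only Wnt3a and Wnt9a differed in whether any count was found. Wnt3a and Wnt9a are 16.2 kb apart on chromosome 11, and Wnt9a was counted in 5 of 6 samples while Wnt3a had no count. Wnt6 and Wnt10a are 6.2 kb apart on chromosome 1, and their highest counts fell in different samples. Wnt10b and Wnt1, 11.7 kb apart on chromosome 15, and Wnt9b and Wnt3, 24.3 kb apart on chromosome 11, had no count.

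Of the receptors, 8 passed the filter on low counts, and their log2 fold changes lay on both sides of 0, 4 above and 4 below. By edgeR's exactTest, its quasi-likelihood test or DESeq2, 0 were called, where exactTest called 1.36% of all tested genes higher and 0.189% lower. In exactTest 2 (Fzd1 and Fzd2) had an unadjusted p below 0.05, beside 7.85% of all tested genes. Fzd1, a receptor that can signal through beta-catenin, had 384, 314 and 340 counts in the non-CD24+CD90+ samples and 1041, 558 and 1019 in the TIC samples. All TIC samples were above all others, at 105 ± 35.7 CPM against 46.8 ± 10.3 CPM (SD, n = 3 each), with a log2 fold change of 1.16 (SE 0.40, adjusted p = 0.189 by edgeR's exactTest). Fzd1 was called in 1 of 13 alternative settings, without TIC replicate 2 (1.41, adjusted p = 0.0815 by edgeR's exactTest, the lowest of a range up to 0.735). Fzd2, a receptor for Wnt5a among others, had 299, 297 and 239 counts against 597, 380 and 794. The lowest TIC sample, at 44.3 CPM, was just above the highest of the others, at 43.6 CPM, and the log2 fold change of 0.94 (SE 0.46) did not pass the test (adjusted p = 0.594 by edgeR's exactTest).

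Fzd6, a receptor of planar polarity, had 247, 315 and 457 counts in the non-CD24+CD90+ samples and 262, 223 and 194 in the TIC samples. In CPM the TIC samples were close together and below the others, at 26.8 ± 1.74 against 45.7 ± 17.0 (SD, n = 3 each), with a log2 fold change of -0.77 (SE 0.53, adjusted p = 0.904 by edgeR's exactTest). Fzd9 had 116, 547 and 459 counts against 319, 101 and 107, and overlapped because non-CD24+CD90+ replicate 1 was low and TIC replicate 1 high. Its log2 fold change was -1.25 (SE 0.66, adjusted p = 0.698 by edgeR's exactTest).

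The remaining receptors overlapped between groups, each with an adjusted p of 1 by edgeR's exactTest. Fzd3, the partner of Fzd6 in planar polarity, had 60, 171 and 21 counts against 71, 109 and 13 (log2 fold change -0.49, SE 1.26). Fzd5 had 97, 254 and 141 counts against 70, 0 and 184 (-0.98, SE 1.22). Fzd7, a receptor described in basal mammary stem cells, had 29, 56 and 45 counts against 11, 15 and 118 (0.12, SE 1.48), so that its TIC mean rested on replicate 3. Fzd4, the receptor for Norrin in vessels, had 0, 28 and 0 counts against 0, 79 and 61 (2.42, SE 2.22). Fzd8 had 6 counts, all in TIC replicate 1. Summed over the family, receptor levels were 179.7 to 243.5 CPM in the non-CD24+CD90+ samples and 170.9 to 328.4 CPM in the TIC samples, which overlapped.

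Levels can be compared between genes only per length, here as TMM-normalised CPM divided by the kilobases (kb) of annotated exon. In non-CD24+CD90+ tumor cells the highest levels were those of Sfrp1 at 22.5 ± 1.96, Fzd9 at 21 ± 11.8 and Dkk3 at 18.1 ± 1.70 CPM per kb (SD, n = 3 each), with Wnt5b between Fzd9 and Dkk3 (SD 3.51). In TICs they were those of Dkk2 at 46.2 ± 22.6, Dkk3 at 31.5 ± 7.73, Wnt5b at 25.0 ± 10.6, Fzd1 at 24.9 ± 8.51 and Sfrp4 at 21.8 ± 9.16 CPM per kb. Neighbours in these orders differed by less than the larger of their SDs. Wnt5b was the leading ligand per length in both groups, and over all samples its level was 22.5 CPM per kb beside 7.50 for Wnt5a and 7.47 for Wnt2. At the other end were Fzd3 at 0.695, Wnt11 at 0.601 and Fzd4 at 0.507 CPM per kb.

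**Figure D4:**
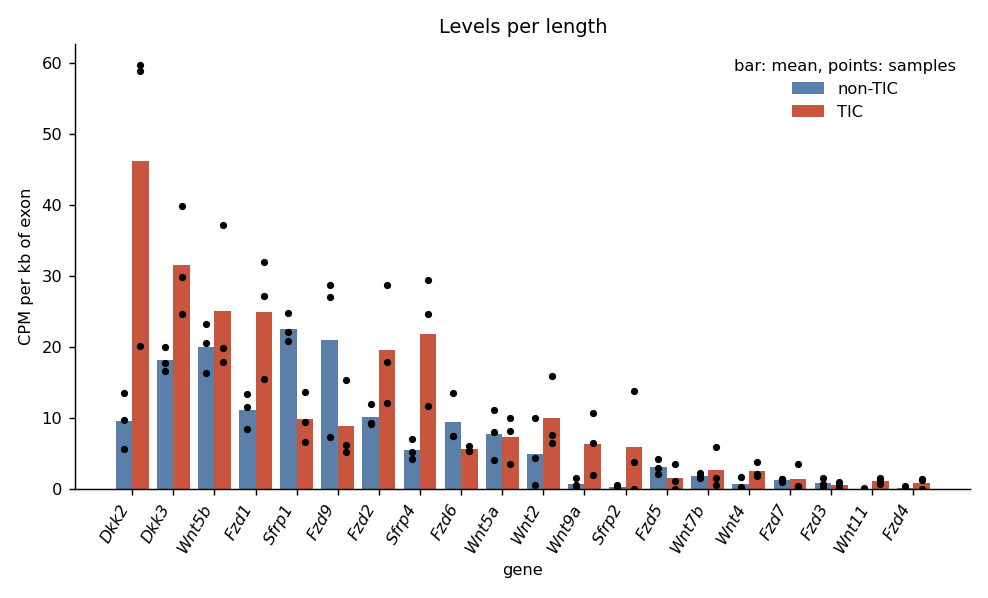
Level per length (TMM-normalised CPM per kb of exon, y axis) of the 20 tested genes, ordered by their mean over all samples; bars are group means of 3 samples (blue, non-CD24+CD90+, labelled non-TIC; red, TIC) and points are samples. Dkk2 in TICs has the highest bar, at 46.2, and TIC replicate 1 is its lowest red-group point.

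Other genes of the Wnt pathway were taken from lists of coreceptors and R-spondins, ligand export, further extracellular modulators, the beta-catenin machinery, common target genes and planar polarity. Of 72 genes, 58 passed the filter on low counts, and their median log2 fold change was -0.05 with 25 of 58 above 0. By edgeR's exactTest 1 was called higher (Rspo1) and 1 lower (Ndp), beside 1.36% and 0.189% of all tested genes, and 8 had an unadjusted p below 0.05, beside 7.85%. Rspo1 passed the filter through the TIC samples alone and Ndp through the non-CD24+CD90+ samples alone, so that both had to differ once tested, and their values are given as a description. In 4 of the 58 all TIC samples were above the others, and in 7 they were below, beside 7.69% and 7.55% of all tested genes. edgeR's quasi-likelihood test called 0 of the 58, with 8 at an unadjusted p below 0.05, and DESeq2 called 3, Rspo1, Ndp and Celsr2, beside 0.410% and 2.58% of all genes.

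Rspo1, an R-spondin that strengthens Wnt signaling by protecting Frizzleds and Lrp proteins from removal, had 0, 1 and 3 counts in the non-CD24+CD90+ samples and 169, 17 and 181 in the TIC samples. The groups did not overlap, and TIC replicate 2 was far below the other TIC samples. The means were 0.181 ± 0.222 and 14.8 ± 11.4 CPM (SD, n = 3 each) and the log2 fold change was 6.25 (SE 1.61, adjusted p = 0.0922 by edgeR's exactTest). Rspo1 was not called by edgeR's quasi-likelihood test (adjusted p = 0.279), by exactTest on library size alone (adjusted p = 0.13) or with each non-CD24+CD90+ sample left out in turn (adjusted p = 0.199 to 0.439), and it could not be tested with a TIC sample left out.

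Ndp, which encodes Norrin, a ligand of Fzd4 that is no Wnt protein, had 50, 63 and 108 counts in the non-CD24+CD90+ samples and no count in the TIC samples. The mean of the non-CD24+CD90+ samples, 9.96 ± 4.75 CPM (SD, n = 3), was 27.9-fold above the floor of 3 counts per library in TICs. This ratio is a description and no lower bound on the difference. The adjusted p was 0.053 by edgeR's exactTest. Ndp was not called by edgeR's quasi-likelihood test (adjusted p = 0.219) or with each TIC sample left out in turn (adjusted p = 0.108 to 0.191), and it could not be tested with a non-CD24+CD90+ sample left out. The floor covers counting error only, and in the TIC samples 27.2% to 39.7% of genes predicted at 20 to 60 reads were missing.

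Of the coreceptors and R-spondins, 14 of 17 passed the filter. Ryk, a Wnt receptor related to kinases, and Ptk7, a polarity coreceptor, had the highest levels per length, 46.9 and 12.8 CPM per kb over all samples. Ryk overlapped between groups (229 ± 82.4 CPM against 197 ± 32.7 CPM in TICs), while Ptk7 was lower in all TIC samples (82.5 ± 8.95 against 55.8 ± 5.87 CPM), neither being called (adjusted p = 1 and 0.894 by edgeR's exactTest). Both genes of ligand export, Porcn, which adds the lipid, and Wls, which carries Wnts to the surface, had overlapping groups (log2 fold changes 0.40, SE 1.56, and 0.32, SE 0.46). Of the 5 tested extracellular modulators, Dkkl1 and Sostdc1 had the highest levels per length and overlapping groups (log2 fold changes -0.08, SE 0.59, and 0.39, SE 0.91), and Tpbg, a membrane inhibitor of Wnt signaling, was at 9.84 ± 5.49 CPM against 23.4 ± 5.44 CPM in TICs (adjusted p = 0.918 by edgeR's exactTest).

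In the beta-catenin machinery, 20 of 21 genes were tested, with a median log2 fold change of -0.19. By edgeR's exactTest 0 were called, beside 1.36% of all tested genes called higher and 0.189% lower. The quasi-likelihood test and DESeq2 also called 0. At an unadjusted p below 0.05 in exactTest there were 2, beside 7.85% of all tested genes. Those 2 were Gsk3b, the kinase that marks beta-catenin for degradation (log2 fold change -0.68, SE 0.32), and Bcl9l, a coactivator of beta-catenin (-0.74, SE 0.37). Csnk1a1, the kinase that starts this marking, and Ctnnbip1, an inhibitor of beta-catenin, had the highest levels per length of this list, 93.6 and 46.7 CPM per kb, with log2 fold changes of -0.14 (SE 0.26) and -0.48 (SE 0.32).

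Of 11 common beta-catenin target genes, 8 were tested, with a median log2 fold change of 0.38 and 7 of 8 above 0. By edgeR's exactTest 0 were called, beside 1.36% of all tested genes called higher and 0.189% lower. The quasi-likelihood test and DESeq2 also called 0. At an unadjusted p below 0.05 in exactTest there were 3, beside 7.85% of all tested genes. Those 3 were Ccn4, Nkd2 and Cd44. Ccn4, a matricellular protein, was higher in all TIC samples (40.7 ± 18.4 against 97.2 ± 37.2 CPM, adjusted p = 0.297 by edgeR's exactTest). So was Nkd2, a feedback inhibitor (29.3 ± 2.29 against 70.6 ± 40.4 CPM, adjusted p = 0.335 by exactTest). Cd44, an adhesion receptor, was lower in all TIC samples (353 ± 19.2 against 234 ± 35.4 CPM, adjusted p = 0.564 by exactTest). Ccnd1, a cyclin, had overlapping groups (log2 fold change 0.10, SE 0.45). Axin2 and Lef1, a feedback inhibitor and a transcription factor that are widely used as readouts of beta-catenin, are named although the rule for named genes did not pick them. Axin2 had 5, 0 and 0 counts in the non-CD24+CD90+ samples and 12, 0 and 37 in the TIC samples, and Lef1 had none.

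In planar polarity, 9 of 10 genes were tested and 0 called by edgeR's exactTest, beside 1.36% of all tested genes called higher and 0.189% lower. In exactTest 1 had an unadjusted p below 0.05, beside 7.85% of all tested genes, and the quasi-likelihood test made no call. Celsr2, a cadherin of this pathway, was lower in all TIC samples, at 403 ± 69.5 against 697 ± 136 CPM (log2 fold change -0.79, SE 0.29, adjusted p = 0.251 by edgeR's exactTest and 0.0291 by DESeq2). Daam1, which links Dishevelled to actin, was at 208 CPM in both groups (SD 31.4 and 22.2), and its relative Daam2 was at 2.33 ± 2.05 against 8.02 ± 7.39 CPM in TICs.

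Markers of stromal cells were also higher in the TIC samples. The summed level of 7 fibroblast genes was 837 to 888 CPM in the non-CD24+CD90+ samples and 1475, 2866 and 2784 CPM in TIC replicates 1 to 3. Of the 7, 4 (Dcn, Dpt, Pi16 and Col14a1) were called higher by edgeR's exactTest, beside 1.36% of all tested genes. The quasi-likelihood test called 2 (Dpt and Col14a1) and DESeq2 called the same 4, beside 0.410% and 2.58% of all genes in either direction. The sum of 8 pericyte and smooth muscle genes was 421 to 494 CPM against 841 to 1316 CPM in TICs, with Rgs5 called higher. Rgs5 was the largest part of this sum. It was at 243 CPM in each non-CD24+CD90+ sample and at 528, 667 and 800 CPM in TIC replicates 1 to 3. All 8 log2 fold changes were above 0, beside 49.7% of all tested genes. In 4 of the 8 every TIC sample lay above every other sample, beside 7.69% of all tested genes. Notch3, Myh11, Abcc9 and Kcnj8 overlapped between groups, with Myh11 nearly level (log2 fold change 0.07, SE 0.54). For 8 endothelial genes the sum was 138 to 142 against 174 to 614 CPM. Of these, 0 were called by edgeR's exactTest, by its quasi-likelihood test or by DESeq2. In exactTest 4 of the 8 had an unadjusted p below 0.05, beside 7.85% of all tested genes. Only Tie1, 1 of the 8, had every TIC sample above every other sample, and the rest overlapped. The sum was highest in TIC replicate 3, where Kdr was at 177 CPM against 32.8 and 25.8 CPM in TIC replicates 1 and 2. In these bulk samples a larger share of such cells and more RNA per cell cannot be told apart.

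Epithelial markers were at high levels in both groups. The 10 luminal genes summed to 7119 to 7579 CPM in the non-CD24+CD90+ samples and 5116 to 5451 CPM in TICs. Of these, 0 were called by edgeR's exactTest or its quasi-likelihood test and 2 by DESeq2, beside 2.58% of all genes in DESeq2. At an unadjusted p below 0.05 there were 2 in exactTest and 3 in the quasi-likelihood test, beside 7.85% and 7.92% of all tested genes. In 4 of the 10 every TIC sample lay below every other sample, beside 7.55% of all tested genes. The rest overlapped, with Cldn3 level (log2 fold change 0, SE 0.32). Krt18 was the largest part of the luminal sum, at 2657 ± 161 against 1645 ± 153 CPM in TICs (SD, n = 3 each). The 5 basal genes summed to 450 to 1001 against 365 to 593 CPM in TICs, with 0 called by each of these tests. In exactTest 1 of the 5 had an unadjusted p below 0.05. Of 7 leukocyte genes, which sum to 16.7 to 35.6 against 32.1 to 90.1 CPM, 3 were tested. Lyz2 was called higher by edgeR's exactTest and DESeq2, but not by the quasi-likelihood test (adjusted p = 0.138). Cd68 and Csf1r had negative log2 fold changes (-0.31, SE 1.18, and -1.68, SE 2.26) and overlapping groups. Itgam, which was not tested, had 63, 4 and 0 counts in the TIC samples and none in the others. Adgre1 and Cd3e had no count, and Ptprc, which encodes CD45, had counts only in non-CD24+CD90+ replicate 1. The 3 adipocyte genes had no count. Cd24a and Thy1, which encode the sorting markers CD24 and CD90, were at 469 against 370 CPM and at 51.4 against 123 CPM in TICs, and neither was called (adjusted p = 0.985 and 0.35 by edgeR's exactTest).

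**Figure D5:**
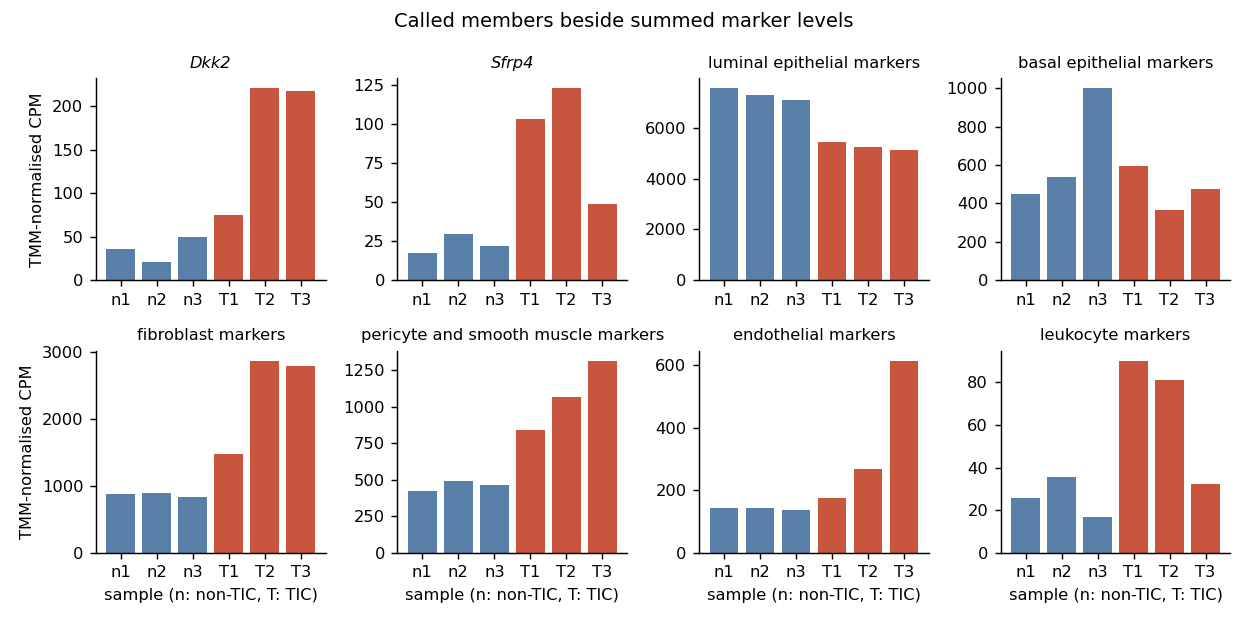
TMM-normalised CPM of Dkk2 and Sfrp4 and the summed CPM of 6 marker lists in each sample (bars; n1 to n3, non-CD24+CD90+ tumor cells; T1 to T3, TICs), each panel with its own axis from 0. The fibroblast sums of the TIC samples (1475, 2866 and 2784 CPM) are all above those of the other samples (875, 888 and 837 CPM). The luminal sums of the TIC samples are below those of the other samples, although most single luminal genes overlapped between groups.

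Per 1000 CPM of the summed fibroblast markers, a ratio chosen after these values were seen, Dkk2 was at 41, 23.3 and 59.5 CPM in the non-CD24+CD90+ samples and at 50.4, 77.1 and 78.3 CPM in the TIC samples. For Sfrp4 the ratio was 19.9, 33.3 and 25.9 CPM against 69.8, 42.9 and 17.5 CPM. On this scale both genes overlapped between the groups, Dkk2 through TIC replicate 1 and Sfrp4 through TIC replicate 3. Dcn was the largest part of the marker sum, so that the scale largely follows this gene. It was at 577, 502 and 472 CPM in the non-CD24+CD90+ samples and at 732, 1617 and 1983 CPM in the TIC samples. The part of these cell types in the results for Dkk2 and Sfrp4 was not tested.

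Some of the tested genes share sequence or exons with other annotated genes, which bears on how uniquely mapped reads were assigned. Over all stretches of 50 bases, 16.45% of Fzd5 is shared with Gm38058, 11.98% of Sfrp2 with Gm26771 and 7.46% of Wnt11 with Gm8398, while the share is 0.27% for Dkk2 and 0.31% for Sfrp4. Fzd6, Sfrp2, Wnt5a, Wnt7b and Wnt11 overlap exons of genes on the opposite strand, of which only Gm26704, beside Fzd6, had counts, 40 over all samples. Whether the counting used strand is not given in the sources used here, so that the values of these 5 genes and of Fzd5 are uncertain to that extent.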

How the data were processed

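RNA-seq counts of 6 samples were used, 3 from each sorted population. Before deposition the authors had trimmed (Trimmomatic 0.32), aligned to GRCm38 (STAR 2.4.0), reduced to uniquely mapped reads (SAMtools 1.1) and counted per Ensembl gene (HTSeq) what came from the sequencer. What they deposited are raw counts, not normalized. The annotation release is not given in the sources used here. Symbols were matched through GENCODE M21 (40340 of 41388 genes, the others holding 0.13% of all counts). Groups came from the sample labels. Replicate numbers follow the sample order and only name the samples, and since the samples are pools, p-values measure the spread between pools. Total counts were 6781239 to 9100552 per sample.

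A gene was tested if it exceeded 1 CPM in 3 or more samples. The test was exactTest of edgeR 4.0.16 (R 4.3.3, TMM, common and tagwise dispersions, common dispersion 0.678), as in the study's methods, which state no CPM limit. P-values were adjusted by Benjamini and Hochberg over 12192 genes, with a threshold of 0.1. Standard errors came from the negative binomial fit. The code was tested on simulated data. Alternatives were edgeR's quasi-likelihood test, DESeq2 1.42.0, scaling by library size alone or by RLE size factors, other limits on low counts, a threshold of 0.05 and leaving out each sample in turn. All members were named. Other pathway genes were named where called, where among the 2 highest levels per length of a list, or where they had the 2 smallest p-values of a list. Members and lists were chosen with earlier results of these data known. Some cell type markers are not reported here. Tumor transplantation, colony, flow cytometry and enzyme data were not analysed here.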

Additional observations from a re-analysis of the deposited data

How the results depend on the processing

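With 3 samples per group and a common dispersion of 0.678, small changes of weakly counted genes could not be resolved. The number of Wnt, Fzd, Sfrp and Dkk genes called, 2, was 1 in edgeR's quasi-likelihood test and 1 to 2 when each sample was left out in turn. The 2 other pathway genes called became 0 in the quasi-likelihood test, 0 without a filter on low counts, 0 at an adjusted p below 0.05, 1 on library size alone, and 0 to 1 when each sample was left out in turn, the 1 being Ccn4 without TIC replicate 1 and neither Rspo1 nor Ndp. Over all genes the 189 calls became 50 in the quasi-likelihood test, 306 in DESeq2, 112 without a filter, 116 at an adjusted p below 0.05 and 72 to 323 with a sample left out. The share of calls that were higher in TICs, 87.8%, moved by over 10 percentage points without TIC replicate 1 (69.7%), in DESeq2 (75.5%) and in the quasi-likelihood test (98%), but not under RLE size factors (88.9%) or library size alone (83%). Among the 20 tested Wnt, Fzd, Sfrp and Dkk genes, log2 fold changes turned sign only in genes that were not called, and only with a sample left out. With a sample left out, they ran from -1.91 (without TIC replicate 3) to 0.62 for Fzd7, which was -0.05 without non-CD24+CD90+ replicate 1. The range was -1.12 to 0.34 (without non-CD24+CD90+ replicate 2) for Fzd3, which was 0 without TIC replicate 3. It was -0.4 to 0.26 (without non-CD24+CD90+ replicate 2) for Wnt5a, which was 0.25 without TIC replicate 1, -0.07 (without TIC replicate 1) to 0.53 for Wnt5b, and -0.77 (without TIC replicate 2) to 1.02 for Wnt7b. The cause was not tested. Without a turn of sign, leaving out a sample also moved uncalled values, to between 1.49 and 4.3 for Wnt4, 3.98 and 8.23 for Wnt11, 0.49 and 2.04 for Wnt2, 2.62 and 4.49 for Wnt9a, 1.84 and 3.01 for Fzd4, -2.43 and -0.39 for Fzd5, and -1.89 and -0.96 for Fzd9. Of the remaining values of single genes, 238 kept direction and side of the threshold, 4 lost it (Sfrp4) and 1 gained it (Fzd1). Fzd4, Sfrp2 and Wnt11 dropped below the filter in 3 settings each and have no value there. No paired analysis was possible because the labels give no replicate numbers, although TIC and non-CD24+CD90+ pools may share mice.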
